A study of Mus musculus with 24 samples.

Results

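RNA of abdominal skin was compared between day 3 wounds and unwounded skin of the same mice. The comparison used 8 of the 24 libraries of the series, 1 wound and 1 unwounded library from each of 4 of the 12 mice, and the mice were paired by their number. The other libraries came from the back of 4 mice and the cheek of 4 mice, and they entered the fit only to share the estimate of spread and to test where abdomen differed. All mice were CD-1, an outbred stock, 7 weeks old at wounding, with no gene altered, and were anaesthetised and given an analgesic. Full-thickness wounds were made in the shaved skin with a 2 mm punch and left to heal for 3 days. An abdomen or back mouse carried 2 wounds and a cheek mouse a single one. The wound itself and nearby unwounded skin were cut out with a punch of the same size and frozen, so each library holds the whole thickness of the tissue, with any fat or muscle that came with it. Unwounded skin came from wounded animals and is therefore not skin of an uninjured mouse. Expression was given as FPKM, in which the fragments of a gene are divided by the length of its transcript and by all mapped fragments of the library, for 18368 genes.

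By day 3 a skin wound has passed from clotting into inflammation. Keratinocytes at its edge, the cells of the epidermis, stop their normal programme, switch on stress keratins and move under the scab. Neutrophils arrive first, drawn by chemokines that bind the receptor CXCR2, and monocytes follow and turn into macrophages that clear debris and feed repair. Fibroblasts and endothelial cells then build granulation tissue on a provisional matrix of fibrin, fibronectin and tenascin. NF-kB is the transcription factor family that switches on many inflammatory chemokines, and interferon-stimulated genes are switched on through a DNA element bound by STAT and IRF proteins.

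Promoter sequences are shown for 6 genes that rose, since most windows of the groups they stand for, chemokines for neutrophils and interferon-stimulated genes, held the element named here. Each runs from 250 bases before the start of the gene to that start, 5′ to 3′ on the strand of the gene, from RefSeq on GRCm38.p6. In the first 3, capitals mark the match to the NF-kB letters GGGANTTTC.
Cxcl1 (chr5:90890995-90891244, plus strand): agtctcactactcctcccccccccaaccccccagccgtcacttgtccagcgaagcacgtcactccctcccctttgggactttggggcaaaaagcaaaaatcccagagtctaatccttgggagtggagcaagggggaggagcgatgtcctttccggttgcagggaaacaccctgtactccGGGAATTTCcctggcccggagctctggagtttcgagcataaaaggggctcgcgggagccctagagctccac
Cxcl2 (chr5:90903649-90903898, plus strand): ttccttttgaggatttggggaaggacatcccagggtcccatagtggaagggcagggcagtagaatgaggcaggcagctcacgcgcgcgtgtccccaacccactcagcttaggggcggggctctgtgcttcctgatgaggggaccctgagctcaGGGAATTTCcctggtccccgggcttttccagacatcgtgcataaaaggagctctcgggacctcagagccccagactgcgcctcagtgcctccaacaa
Cxcl3 (chr5:90785851-90786100, plus strand): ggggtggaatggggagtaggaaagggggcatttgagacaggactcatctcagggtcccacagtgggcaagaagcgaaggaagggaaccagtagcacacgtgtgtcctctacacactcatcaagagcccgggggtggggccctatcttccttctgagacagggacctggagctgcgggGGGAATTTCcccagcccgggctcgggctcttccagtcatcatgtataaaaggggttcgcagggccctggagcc
In the next 3, capitals mark matches to GAAANNGAA or its reverse complement, the core of the interferon-stimulated response element, which was added to the search after the values were seen.
Isg15 (chr4:156200819-156201068, minus strand): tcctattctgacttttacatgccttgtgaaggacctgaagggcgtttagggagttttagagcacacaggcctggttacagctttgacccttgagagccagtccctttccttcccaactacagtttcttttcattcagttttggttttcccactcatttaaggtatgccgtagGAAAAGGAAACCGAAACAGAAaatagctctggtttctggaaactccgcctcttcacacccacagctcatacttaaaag
Ifit1 (chr19:34640639-34640888, plus strand): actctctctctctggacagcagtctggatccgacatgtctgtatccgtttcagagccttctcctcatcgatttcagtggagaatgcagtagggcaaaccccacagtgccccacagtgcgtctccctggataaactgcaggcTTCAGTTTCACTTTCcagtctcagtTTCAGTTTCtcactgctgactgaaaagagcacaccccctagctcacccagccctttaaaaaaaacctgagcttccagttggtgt
Ifit3 (chr19:34583279-34583528, plus strand): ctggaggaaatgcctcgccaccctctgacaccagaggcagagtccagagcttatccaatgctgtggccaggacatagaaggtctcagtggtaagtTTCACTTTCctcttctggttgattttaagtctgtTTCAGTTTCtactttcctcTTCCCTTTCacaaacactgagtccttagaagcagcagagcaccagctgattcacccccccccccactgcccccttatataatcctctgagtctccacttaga
Each of the 3 chemokine promoters held 1 match, written with the same 9 letters, and each of the 3 interferon-stimulated promoters held 3, some of them overlapping.

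Motifs were counted on both strands of the 300-base RefSeq windows, 250 bases before and 50 after the start, which 11449 of the 14423 tested genes had. The NF-kB letters were in 1.08% of all windows, in 1.86% of those of genes that rose, in 0.882% of those of genes that fell, and in 3 of 4 chemokines that attract neutrophils. The interferon element was in 7.49% of all windows, 10.5% of those that rose and 6.61% of those that fell, against 10 of 14 interferon-stimulated genes (71.4%). The AP-1 letters TGANTCA were in 5.79% of all windows, 8.56% of those that rose and 5.45% of those that fell. The CHR letters TTTGAA, a cell cycle element, were in 12.6% of all windows and in 12 of 29 of the cell division list. The hypoxia element ACGTG was in 24.6% of all windows, 22.5% of those that rose, 22.5% of those that fell and 51.9% of the hypoxia and glycolysis list. ACGTG was also in 62.5% of the clock list and in 3 of 4 chemokines that attract neutrophils. CACGTG, an E-box of clock factors that contains ACGTG, was in 9.78% of all windows and 5 of 16 of the clock list. These matches describe letters, and binding was not measured.

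Several libraries stood apart before any comparison was made. Summed FPKM of 24 pancreas genes, listed after their values were seen, lay between 176 and 514 in 5 libraries, the wounds of abdomen mice 2, 3 and 4 and the unwounded back skin of mice 1 and 3. In the other 19 libraries the sum was between 0.16 and 1.39 FPKM. Ins2, an insulin gene, was listed at 0 in the 4 unwounded abdomen libraries and in the wound of mouse 1, and at 310.01, 95.3 and 100.2 FPKM in the wounds of mice 2, 3 and 4. The ratio of Ins1 to Ins2 was between 0.309 and 0.353 in all 5 libraries. Of the 23 pancreas genes tested, 21 passed the test as higher in abdomen wounds. No pancreas gene is described below as a wound response, but counts over all tested genes include them unless said otherwise. The level of these genes follows wounding in 3 of the 4 abdomen pairs, so its part in other results could not be told apart from wounding in those mice and was not tested further than by a fit with this level as a covariate. The skeletal muscle genes varied too, with summed levels of 26302, 1098, 4937 and 25666 FPKM in unwounded skin of mice 1 to 4 and 3117, 4318, 7246 and 9187 FPKM in their wounds. The genes of dermis and epidermis that define skin were high in every abdomen library, with Krt14 at 1386, 1789.7, 2016 and 1254 FPKM and Col1a1 at 3559, 4483, 3946 and 5122 FPKM in unwounded skin. FPKM values hold no counts, so depth is not known. From the smallest steps between low values the 24 libraries appeared to differ in depth only between 0.94 and 1.08 times their median, a rough estimate. Fewer cells of a type and less RNA per cell cannot be told apart in such tissue.

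Of 14423 genes tested, 2437 rose and 2304 fell in abdomen wounds at an adjusted p under 0.05, together 32.9% of the genes (16.9% rose and 16.0% fell). Counts of the gene lists below are to be read against these shares. Leaving out the pancreas genes, 2416 rose, and the other counts over all genes include them. The test was limma on log2(FPKM + 0.5) with a term for each mouse and Benjamini-Hochberg adjustment over all tested genes, and all fold changes are on that scale, which understates the change of low genes. Rises were larger than falls. The median size was 0.65 on the log2 scale among genes that rose and 0.49 among those that fell, with 713 rises and 179 falls of log2 1 or more and 100 rises and 3 falls of log2 3 or more. All 4 mice changed the same way for 2299 of the genes that rose and 2197 of those that fell. The wound libraries all lay above the unwounded ones for 13.4% of tested genes and all below for 11.0%, which included 1711 of the genes that rose and 1327 of those that fell. At the stricter threshold of 0.001 that the study used for wounds, 565 genes rose and 150 fell. The balance of directions depended on scaling. Among called genes 51.4% were higher as deposited, against 34.0% (1769 higher, 3440 lower) with each library set to the same FPKM sum, 41.0% (2148 and 3094) after quantile normalization and 30.5% (1705 and 3879) with muscle genes left out and equal sums. The median gene moved by -0.015 on the log2 scale as deposited, -0.112 with equal sums and -0.134 without muscle genes, so small falls are to be read against that shift. With the pancreas level as a covariate 1171 genes rose and 935 fell. An exact test over the sign changes of 4 within-mouse differences cannot go below a two-sided p of 0.125, so single genes rest on the fit across genes.

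**Figure D1:**
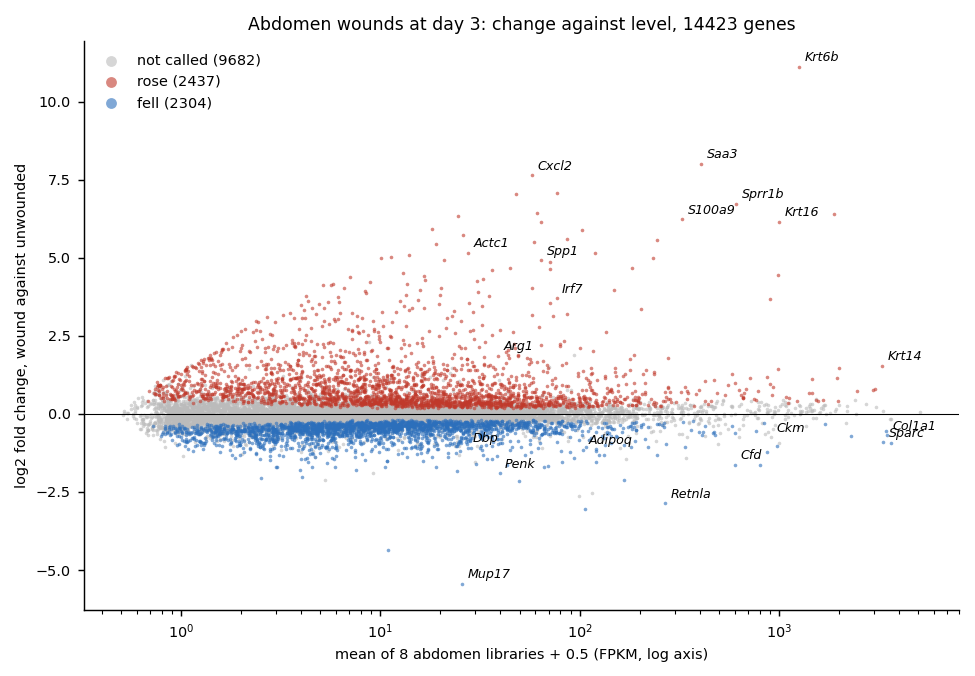
Each point is 1 of 14423 genes, with its mean over the 8 abdomen libraries plus 0.5 FPKM on a log axis and its log2 fold change, wound against unwounded, on the y axis; red points rose, blue points fell and grey points were not called. The 100 genes that rose by log2 3 or more include the pancreas gene Ins2. They stand above a much shorter lower side, with Krt6b at 11.12 and Mup17 at -5.44.

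Keratins and cornified envelope proteins of stressed epidermis changed most. Krt6b, a keratin of activated keratinocytes (gene ID 16688, chr15:101676023-101680293 on GRCm38.p6), had the largest rise of any gene in the comparison. Krt6b was at 0.2, 0.45, 0.78 and 0.19 FPKM in unwounded skin and at 4999, 2479, 1986 and 586 FPKM in wounds (log2 fold change 11.12 ± 0.41, adjusted p = 2.4e-07). Values are given in the order of mice 1 to 4 here and below, and ± after a fold change is its standard error. Its partner Krt16 (gene ID 16666, chr11:100246091-100248902) moved with it. Krt16 was at 12.7, 36.5, 32.1 and 16.4 FPKM in unwounded skin and at 3761, 1753, 1851 and 558 FPKM in wounds (log2 fold change 6.15 ± 0.41, adjusted p = 5.4e-06). Krt6a was at 67.6, 65.9, 69.8 and 63.9 FPKM in unwounded skin and at 3889.5, 1911, 1362 and 442 FPKM in wounds (log2 fold change 4.43 ± 0.39, adjusted p = 2.8e-05). For all 3 keratins every wound lay above every unwounded library, with the wound of mouse 1 highest and that of mouse 4 lowest. Of 23 tested genes on a list of wound-activated keratinocyte genes, 21 rose and 0 fell, with a median log2 fold change of 3.77 against -0.015 over all genes. Small proline-rich proteins, which are cross-linked into the cornified envelope, rose by 6.73 for Sprr1b, from 5.97, 11.4, 15.4 and 4.26 to 2477, 1087, 999 and 278 FPKM, with Sprr2d (4.99), Sprr2h (4.33) and Sprr2e (3.97) behind it, and Sprr2a1 (6.42, adjusted p = 0.00012) and Sprr2i (5.6, adjusted p = 1.6e-05) from outside the list. The gap junction genes Gjb2 (4.66, adjusted p = 0.00063) and Gjb6 (3.77, adjusted p = 0.00073), and Itga5, the fibronectin receptor subunit that migrating keratinocytes use (1.12, adjusted p = 5.3e-06), also rose. Krt17 was already at 619, 649, 734 and 495 FPKM in unwounded skin and reached 2033, 1256, 1152 and 521 FPKM (log2 fold change 0.85 ± 0.21, adjusted p = 0.0089), which was not called in the 8 abdomen libraries alone. The transglutaminases that cross-link the envelope were not called, at Tgm1 (0.41, adjusted p = 0.11) and Tgm3 (1.31, adjusted p = 0.06).

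**Figure D2:**
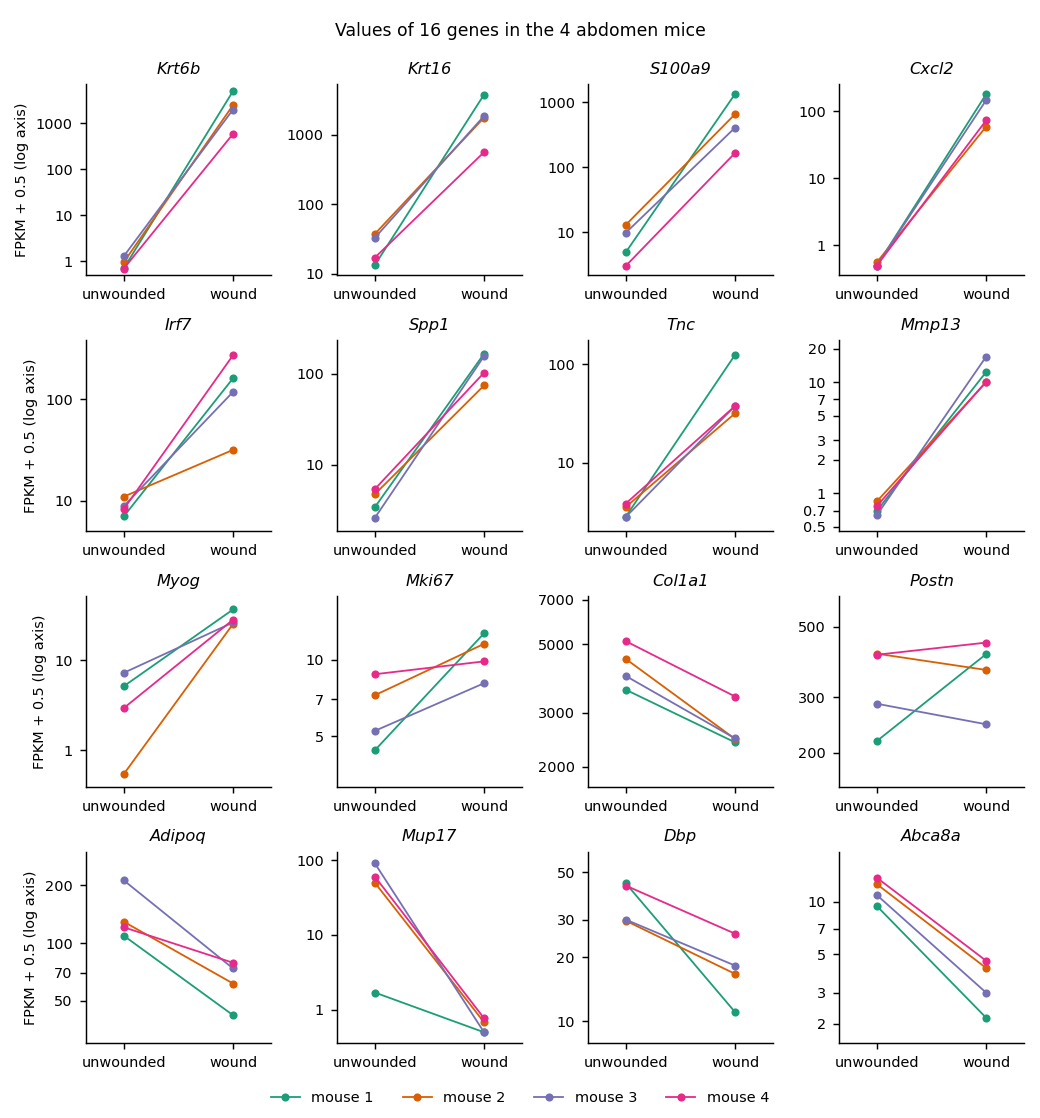
Lines join the unwounded and wound library of each of the 4 abdomen mice for 16 genes, as FPKM plus 0.5 on a log axis whose range differs between panels. Krt6b, Krt16, S100a9, Cxcl2, Spp1, Tnc and Mmp13 rise in every mouse without overlap, Irf7 rises least in mouse 2, Postn goes both ways, and Adipoq, Dbp, Abca8a and Col1a1 are lower in every wound than in its unwounded skin.

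A cluster of stefin A genes, inhibitors of cysteine proteases, rose beside the keratins. Stfa3 went from 89.5, 253, 154 and 71.7 FPKM to 2179.7, 1618, 1691 and 1185 FPKM (log2 fold change 3.69 ± 0.42, adjusted p = 0.00016). BC100530 (6.39, adjusted p = 4.3e-05), Gm5416 (7.03, adjusted p = 4.7e-06), Gm5483 (listed at 0 in all unwounded skin and at 65.5, 27.9, 35.1 and 12.2 FPKM in wounds, adjusted p = 9.5e-07), BC117090 (5.89, adjusted p = 0.00031) and Stfa2l1 (5.07, adjusted p = 3.3e-05) lie together on chromosome 16. Members of this cluster and of the Sprr2 family are near-identical copies, so how reads were split among them is uncertain and only the joint rise can be read. BC100530 and Stfa2l1 are on the neutrophil list, while Stfa3 is on the keratinocyte list. Which cells the joint rise came from was not tested. Saa3, a serum amyloid A made locally in inflamed tissue (gene ID 20210, chr7:46711998-46719615), ranked 2 among rises by the naming rule. Saa3 was at 5.93, 4.16, 1.14 and 0.81 FPKM in unwounded skin and at 1450.1, 779.5, 541 and 468 FPKM in wounds (log2 fold change 8.01 ± 0.56, adjusted p = 8.3e-06).

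Genes of ordinary epidermis moved in both directions. Of 24 genes of basal and differentiated epidermis, 7 rose and 3 fell, with a median of 0.13. This count and that of the antimicrobial genes are to be read against the 16.9% of all tested genes that rose and 16.0% that fell. Krt14, the basal keratin, was at 7661, 4765, 4899 and 2515 FPKM in wounds (log2 fold change 1.54 ± 0.22, adjusted p = 0.00028), and Krt1 (1.48, adjusted p = 0.00017) and Casp14 (2.0, adjusted p = 0.0016) of the upper layers rose too. Krt10, which pairs with Krt1, was at 2623, 2904, 3198 and 2558 FPKM before and 3431, 2876, 3668 and 3206 FPKM after, with no call (log2 fold change 0.22 ± 0.16, adjusted p = 0.31). Krt5 was not called either (0.27, adjusted p = 0.073). Krt15, a basal keratin of resting epidermis and the hair follicle, fell (-1.03, adjusted p = 0.00049), as did Flg2, a filaggrin of the horny layer (-1.53, adjusted p = 0.00098). Lce3a (3.06, adjusted p = 0.0055) and Lce3f (3.49, adjusted p = 0.00099), late cornified envelope genes known to be induced by injury, rose from below 1 FPKM, while Lce1m (-0.97, adjusted p = 0.17) and Lor (-0.35, adjusted p = 0.22) were not called. Of 12 antimicrobial genes, 5 rose and 2 fell. Slpi, an inhibitor of neutrophil elastase, had the largest rise (4.61, adjusted p = 7.7e-05), followed by Wfdc12 (4.02, adjusted p = 0.00011) and the beta defensins Defb3 (1.56, adjusted p = 0.018) and Defb14 (1.4, adjusted p = 0.0042). Lcn2, which binds bacterial siderophores, rose by 1.5, and Rnase4 (-0.53, adjusted p = 0.026) and Wfdc21 (-1.0, adjusted p = 0.021) fell. Defb3, Rnase4 and Wfdc21 lost the call when at least 1 of the mice was left out, and Casp14 and Rnase4 lost it with the pancreas covariate.

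Chemokines for neutrophils went from near absence to clear expression. Of 6 listed, Cxcl15 did not pass the filter on low values and the 5 tested rose, with a median log2 fold change of 3.62. In abdomen, Cxcl2, Cxcl3 and Cxcl5 reached the 0.5 FPKM of that filter only in wounds. The count of 5 was thus partly set by the filter, and the values of each gene are given below. Cxcl2 (gene ID 20310, chr5:90903899-90905938), whose promoter is printed above, ranked 3 among the rises. Cxcl2 was at 0, 0.06, 0 and 0 FPKM in unwounded skin and at 179, 58.5, 146 and 72.5 FPKM in wounds (log2 fold change 7.65 ± 0.32, adjusted p = 2.4e-07). Cxcl3 was at 0.32, 0, 0 and 0 FPKM in unwounded skin and at 30.4, 10.8, 24 and 11.4 FPKM in wounds (log2 fold change 4.98 ± 0.21, adjusted p = 9.4e-08). Cxcl1 was at 0.74, 1.12, 0.42 and 0.47 FPKM in unwounded skin and at 16.7, 5.31, 12.2 and 5.96 FPKM in wounds (log2 fold change 3.04 ± 0.35, adjusted p = 0.00013). Every wound was above every unwounded library for these 3 genes. Cxcl5 (listed at 0 in all unwounded skin and at 18.7, 5.65, 4.25 and 2.05 FPKM in wounds, adjusted p = 0.00017) and Ppbp (1.04, adjusted p = 0.043), a chemokine of platelets, followed. The per-mouse medians of the list were 5.23, 3.62, 3.79 and 2.73 for mice 1 to 4. Ppbp lost the call when at least 1 of the mice was left out, and Ppbp lost it under another scaling.

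Genes of neutrophils themselves rose with them. Of 23 tested, 17 rose and 2 fell, with a median of 2.67. Those that rose include BC100530 and Stfa2l1, given above with the stefins. S100a8 and S100a9 form calprotectin, the most abundant protein of the neutrophil cytoplasm, and are also made by stressed keratinocytes. S100a9 was at 4.42, 12.5, 9.3 and 2.53 FPKM in unwounded skin and at 1348, 659, 407 and 166 FPKM in wounds (log2 fold change 6.23 ± 0.41, adjusted p = 5.9e-06). S100a8 reached 994, 509, 243 and 153 FPKM from 28.8, 2.2, 17.6 and 2.21 FPKM (log2 fold change 5.55 ± 0.54, adjusted p = 6.1e-05). Surface receptors on neutrophils rose from low levels, among them Clec4d (5.45), Clec4e (4.17), Trem1 (4.13), Fpr1 (3.23), Csf3r (2.65) and Cxcr2 (2.0). Genes of granule proteins were not alike. Mmp8, the neutrophil collagenase, rose (1.53, adjusted p = 8.1e-05). Camp (-0.36, adjusted p = 0.41) and Ngp (0.37, adjusted p = 0.41) were below 1 FPKM in every abdomen library and not called, and Mpo, at 33.4, 33.1, 36.9 and 23 FPKM in unwounded skin and 10.2, 17.4, 23.4 and 14.8 FPKM in wounds, fell (log2 fold change -0.96 ± 0.29, adjusted p = 0.026). The Mpo call was lost without mouse 1 or mouse 2. Il1r2, a decoy receptor for interleukin 1 found on neutrophils and other cells, also fell (-0.99, adjusted p = 0.00017). Mpo lost the call with the pancreas covariate.

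Among 26 cytokines, 12 rose and 3 fell. Il1b, the main inflammatory interleukin 1, led. Il1b was at 1.3, 2.23, 1.95 and 1.8 FPKM in unwounded skin and at 190.5, 68.2, 140.2 and 63.5 FPKM in wounds (log2 fold change 5.51 ± 0.40, adjusted p = 1.1e-05). Osm, of the interleukin 6 family (3.38, adjusted p = 2.9e-05), Csf3, which mobilises neutrophils (listed at 0 in all unwounded skin and at 7.08, 1.2, 3 and 4.12 FPKM in wounds, adjusted p = 3.4e-05), Il33, an alarm signal of barrier cells (2.19, adjusted p = 0.00044), Il24 (2.06, adjusted p = 0.0072) and Tnf (1.84, adjusted p = 0.00051) rose as well, and so did Il1rn, the natural blocker of the interleukin 1 receptor (0.96, adjusted p = 0.00053). Il6 itself was at 0.75, 0.7, 0.27 and 0.32 FPKM in wounds against 0, 0.38, 0.23 and 0.39 FPKM and was not called (log2 fold change 0.43 ± 0.25, adjusted p = 0.21). Il34, a survival signal of Langerhans cells (-0.59, adjusted p = 0.028), Il7 (-0.8, adjusted p = 0.0025) and Il20 (-0.89, adjusted p = 0.0013) fell. Il34 lost the call when at least 1 of the mice was left out, and Il34 lost it with the pancreas covariate.

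Monocytes and macrophages, and the chemokines that call them, formed the next layer. Of 9 chemokines for monocytes, 8 rose, with a median of 2.44. Ccl4 was at 0, 0, 0.11 and 0.1 FPKM in unwounded skin and at 61.6, 22.3, 71.5 and 36.8 FPKM in wounds (log2 fold change 6.33 ± 0.36, adjusted p = 1.4e-06). Ccl2 was at 6.5, 9.17, 6.06 and 7.21 FPKM in unwounded skin and at 62.8, 32.5, 52.5 and 51.5 FPKM in wounds (log2 fold change 2.68 ± 0.24, adjusted p = 2.2e-05). The exception was Ccl24, an eotaxin of resting tissue macrophages, which fell from 29.7, 24.3, 29.3 and 12 to 4.59, 9.39, 10.6 and 6.97 FPKM (log2 fold change -1.52 ± 0.21, adjusted p = 0.0003). Of 26 monocyte and macrophage genes 20 rose and 1 fell (median 1.28). The largest rises were in Fcgr4 (3.88), Trem2 (2.97), Fcgr1 (2.82) and Chil3 (2.53), receptors for antibodies and lipids and a chitinase-like protein. Arg1 was at 12.7, 18.6, 12.6 and 16.1 FPKM in unwounded skin and at 83.7, 93.5, 47.5 and 24.3 FPKM in wounds (log2 fold change 1.86 ± 0.26, adjusted p = 0.00043), an enzyme that turns arginine into ornithine. Members of the list that did not rise included 3 that resident dermal macrophages express. Cd163, a haemoglobin scavenger receptor, fell (-0.72, adjusted p = 0.023), Mrc1 was at 37.4, 54.8, 43.5 and 54.3 FPKM before and 42.9, 55, 32.2 and 47 FPKM after (log2 fold change -0.11 ± 0.13, adjusted p = 0.55), and Folr2 was not called (-0.16, adjusted p = 0.54). With the pancreas level as a covariate 13 macrophage genes and 5 chemokines were called as risen. Retnla, a protein of alternatively activated macrophages and fat tissue (gene ID 57262, chr16:48842609-48844461), ranked 3 among falls, from 104, 450.5, 695 and 421 to 22.6, 10.3, 50.3 and 383 FPKM (log2 fold change -2.87 ± 0.67, adjusted p = 0.0088). Its call was lost in the 8 abdomen libraries alone and with the pancreas covariate. Cd163 lost the call when at least 1 of the mice was left out, and Cd163 lost it with the pancreas covariate.

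Interferon-stimulated genes rose as a block, and by amounts that differed between mice. Of 20 tested, 19 rose and 0 fell, with a median log2 fold change of 2.75, and Usp18 was not called (1.09, adjusted p = 0.14). Irf7, the factor that amplifies the interferon response, stood first. Irf7 was at 6.51, 10.5, 8.34 and 7.78 FPKM in unwounded skin and at 159, 31.1, 117 and 269 FPKM in wounds (log2 fold change 3.7 ± 0.53, adjusted p = 0.00071). Isg15 was at 6.2, 8.74, 7.74 and 7.06 FPKM in unwounded skin and at 171, 15.4, 108 and 242 FPKM in wounds (log2 fold change 3.54 ± 0.63, adjusted p = 0.0023). Ifit1 was at 0.78, 1.43, 1.27 and 1.24 FPKM in unwounded skin and at 38.5, 2.95, 11.8 and 53.7 FPKM in wounds (log2 fold change 3.38 ± 0.72, adjusted p = 0.0057). Ifit3, whose promoter is printed above, rose too (3.08, adjusted p = 0.0042). The wound of mouse 4 was highest and that of mouse 2 lowest for Irf7, Isg15 and Ifit1. The median difference of the list within mice 1 to 4 was 3.43, 0.77, 2.37 and 4.32, and only 8 members passed in a fit of the 8 abdomen libraries alone, against 19 with the pancreas covariate. Chemokines that interferons induce and that attract T cells moved too. Cxcl10 (3.55, adjusted p = 0.001), Cxcl11 (2.34, adjusted p = 0.0053) and Cxcl9 (1.74, adjusted p = 0.034) rose, as did Ccl5 (1.62, adjusted p = 0.0088). Cxcl9 lost the call when at least 1 of the mice was left out, and Cxcl9 and Ccl5 lost it with the pancreas covariate.

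**Figure D3:**
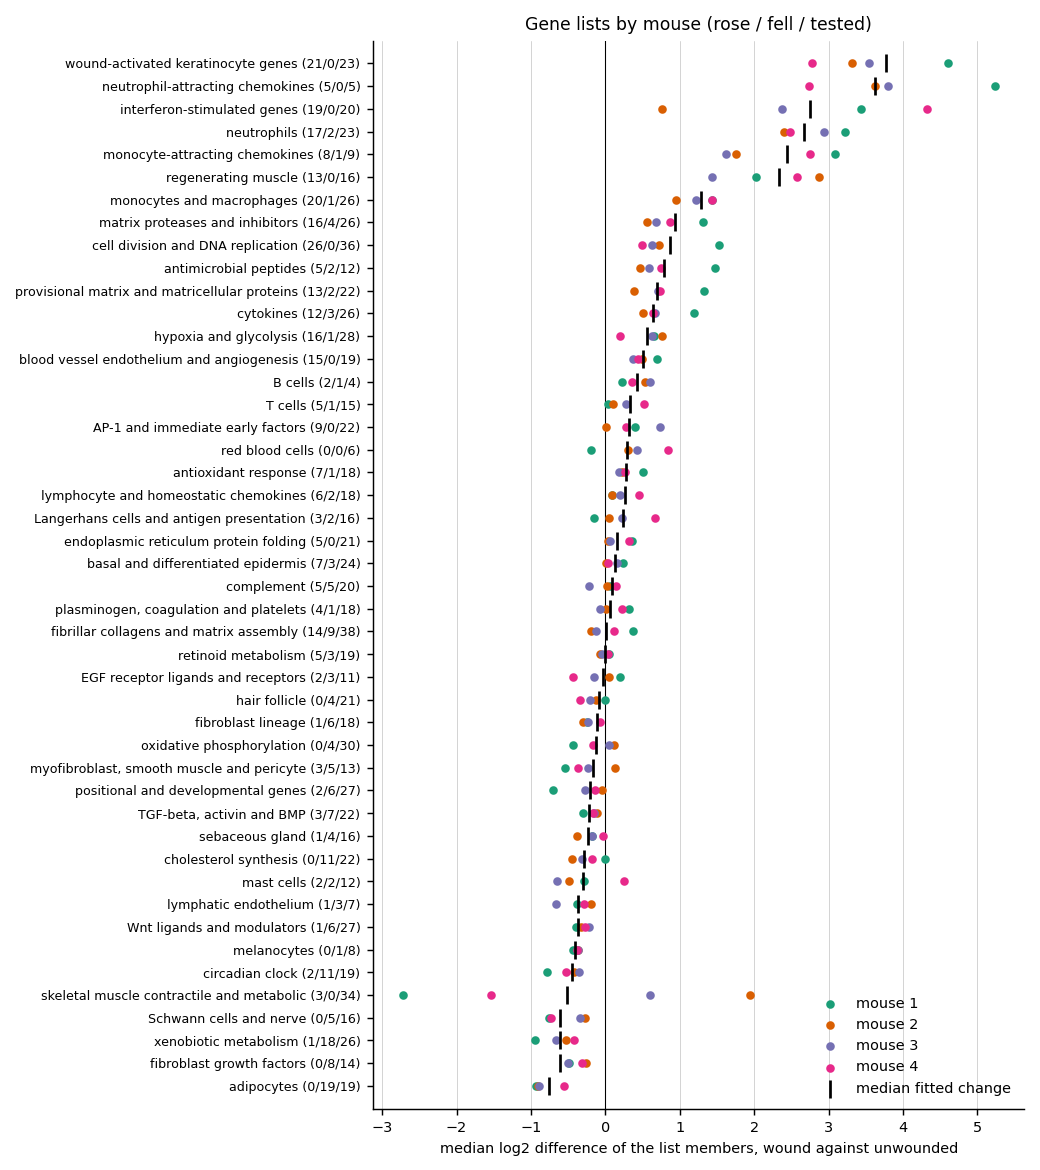
Each row is a gene list, each coloured point the median log2 difference of its tested members between wound and unwounded skin of 1 abdomen mouse, and the black tick the median fitted change; numbers after a name give members that rose, fell and were tested. Mouse 1 sits to the right for keratinocyte genes and chemokines for neutrophils, and skeletal muscle is the widest row, from -2.72 in mouse 1 to 1.95 in mouse 2.

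Lists of other immune cells are to be read against the 32.9% of all tested genes that were called. Of 15 T cell genes 5 rose and 1 fell. Gzma (2.71, adjusted p = 3.1e-05) and Gzmb (2.09, adjusted p = 0.0011), proteases of killer cells, rose, and Cd3g, part of the T cell receptor and also of resident epidermal T cells, fell (-0.84, adjusted p = 0.0022). Among 16 genes of Langerhans cells and antigen presentation 3 rose and 2 fell, with Ccr7, which guides dendritic cells to lymph nodes (1.27, adjusted p = 0.034), and Cd209a (-0.92, adjusted p = 0.016) at the ends. Cd207, the marker of Langerhans cells, was not called (-0.79, adjusted p = 0.055). Of 12 mast cell genes 2 rose, 2 fell and 8 were not called, with a median of -0.31. Hdc, which makes histamine in mast cells and neutrophils and is also on the neutrophil list, had a rise of 3.32. Tpsab1, Mrgprb2 and Ms4a2 were the other called members, and the mast cell proteases Mcpt4 and Cma1 were not called. Of 4 B cell genes Jchain fell (-1.69, adjusted p = 0.0077) and 2 rose from about 1 FPKM or less. None of 6 red blood cell genes was called by limma, with Hba-a1 at 0.41 (adjusted p = 0.14). Complement split, with 5 of 20 up, including the receptor C3ar1 (2.22, adjusted p = 2.4e-07) and Cfb of the alternative pathway (1.71, adjusted p = 0.00015), and 5 down, including C7 (-2.13, adjusted p = 0.0097) of the membrane attack complex. Ccr7 and Cd209a lost the call when at least 1 of the mice was left out, and Ccr7, Jchain and C7 lost it with the pancreas covariate. Without mouse 1, 3 or 4, 3 T cell genes were called as risen, and the 5 calls of the Langerhans list came to between 1 and 3 when 1 mouse was left out.

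Enzymes that cut matrix and the matrix laid down early in repair rose, while the mature collagens did not. Of 26 proteases and inhibitors 16 rose and 4 fell (median 0.93). Plaur, the urokinase receptor, rose by 2.49. Mmp13 was at 0.2, 0.35, 0.14 and 0.27 FPKM in unwounded skin and at 11.9, 9.52, 16.5 and 9.62 FPKM in wounds (log2 fold change 4.04 ± 0.25, adjusted p = 1e-06). Timp1 was at 12.3, 17, 14.3 and 10.2 FPKM in unwounded skin and at 239.7, 86.8, 106 and 94.5 FPKM in wounds (log2 fold change 3.14 ± 0.24, adjusted p = 7.8e-06). The other tissue inhibitors of metalloproteinases went the opposite way, with Timp2 (-0.59), Timp3 (-1.14) and Timp4 (-1.16) all lower, while Mmp2 (-0.16, adjusted p = 0.53) and Mmp14 (0.05, adjusted p = 0.74) were not called. Of 22 genes of provisional matrix 13 rose and 2 fell. Spp1, osteopontin (gene ID 20750, chr5:104435111-104441053), and Tnc, tenascin C (gene ID 21923, chr4:63959785-64047015), led. Spp1 was at 2.92, 4.25, 2.11 and 4.9 FPKM in unwounded skin and at 164, 73.5, 155 and 102 FPKM in wounds (log2 fold change 4.92 ± 0.38, adjusted p = 1.7e-05). Tnc was at 2.35, 3.07, 2.33 and 3.37 FPKM in unwounded skin and at 125, 31.4, 37.5 and 37.4 FPKM in wounds (log2 fold change 3.91 ± 0.30, adjusted p = 1.1e-05). Neither gene overlapped between states, and the wound of mouse 1 held far more Tnc than the other 3 wounds. Hyaluronan synthase Has3 (2.36, adjusted p = 0.00018), Ptx3 (1.58, adjusted p = 0.013), Tnfaip6 (1.51, adjusted p = 0.0017) and Thbs1 (1.11, adjusted p = 0.0087) also rose. Fn1, fibronectin, was not called (-0.25, adjusted p = 0.37), nor was Postn, periostin, at 217, 411, 285 and 408 FPKM before and 409.6, 365, 246 and 445 FPKM after (log2 fold change 0.16 ± 0.16, adjusted p = 0.47). Timp2 and Ptx3 lost the call when at least 1 of the mice was left out, and Timp2, Timp4 and Ptx3 lost it with the pancreas covariate.

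The list of 38 fibrillar collagens and matrix assembly genes divided, with 14 up and 9 down. Col1a1 was at 3559, 4483, 3946 and 5122 FPKM in unwounded skin and at 2398, 2459.6, 2471 and 3383 FPKM in wounds (log2 fold change -0.68 ± 0.21, adjusted p = 0.025). Col3a1 was at 2972, 4398, 4183 and 4756 FPKM in unwounded skin and at 2581, 2940.2, 2288 and 3306 FPKM in wounds (log2 fold change -0.54 ± 0.20, adjusted p = 0.048). Both collagens of the dermis were thus lower in wounds, with Col1a2 (-0.94, adjusted p = 0.0057). The call for Col1a1 was lost when any single mouse was left out (adjusted p between 0.054 and 0.086), that for Col3a1 without mouse 2, 3 or 4 or after quantile normalization, and only 1 of the list was called as fallen with the pancreas covariate. The collagen-binding proteins Dcn (-0.7, adjusted p = 0.023), Ogn (-1.4, adjusted p = 0.0016) and Dpt (-1.07, adjusted p = 0.0019) were lower too, as was Sparc, at 4244, 4339, 4158 and 4654 FPKM before and 2049.5, 2252, 2148 and 2917 FPKM after (log2 fold change -0.91 ± 0.21, adjusted p = 0.0064). Enzymes that modify new collagen went up, P4ha3 (2.41), Plod2 (2.1) and Loxl3 (1.57), with the collagens Col12a1 (2.0), Col5a3 (1.39) and Col6a3 (1.0). Of 18 fibroblast genes 1 rose and 6 fell, with a median of -0.11 against -0.015 over all tested genes. The collagen, fibroblast and contractile counts are to be read against the 16.9% of all tested genes that rose and 16.0% that fell. The member that rose was Crabp1, which binds retinoic acid (1.33, adjusted p = 4.7e-05), while Clec3b (-1.32, adjusted p = 0.0018), Pi16 (-0.97, adjusted p = 0.011) and Dpp4 (-0.84, adjusted p = 0.0051), genes of fibroblasts of the outer connective tissue, fell, and Pdgfra (-0.01, adjusted p = 0.97) was not called. In the list of contractile cells 5 of 13 fell, among them the smooth muscle genes Lmod1 (-1.23), Myh11 (-1.0) and Cnn1 (-0.9), and 3 rose, Mcam (0.56), Rgs5 (0.55) and Notch3 (0.32), which mark pericytes. Acta2, the actin of myofibroblasts, was not called (0.13, adjusted p = 0.39). Dcn, Pi16, Lmod1 and Notch3 lost the call when at least 1 of the mice was left out, Col1a1, Col3a1, Col1a2, Dcn, Dpt, Sparc, Pi16, Dpp4, Lmod1, Myh11 and Notch3 lost it with the pancreas covariate, and Col3a1 and Notch3 lost it under another scaling. Without mouse 2, 3 or 4 the collagen list had 4, 3 and 4 members called as fallen, and without mouse 1 the contractile list had 3.

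Genes of vessel endothelium rose by small amounts. Of 19 tested 15 rose and 0 fell, with a median of 0.51 and 13 called as risen with the pancreas covariate. Apln, a peptide of sprouting tip cells (1.72, adjusted p = 8.2e-05), had the largest rise, followed by the adhesion molecule Vcam1 (0.94, adjusted p = 0.00069), the junction cadherin Cdh5 (0.87, adjusted p = 0.00022) and Selp (0.86, adjusted p = 0.0055), which catches leukocytes, and Vwf (0.12, adjusted p = 0.62) and Cldn5 (-0.23, adjusted p = 0.3) were not called. Of 7 lymphatic genes 3 fell and 1 rose. Lyve1 (-1.0, adjusted p = 0.0077), Mmrn1 (-0.84, adjusted p = 0.0025) and Reln (-0.61, adjusted p = 0.0052) fell, and Pdpn, which keratinocytes and fibroblasts of wounds also express, rose (1.07, adjusted p = 0.00032), while Ccl21a (-0.36, adjusted p = 0.26), Flt4 (-0.2, adjusted p = 0.25) and Prox1 (-0.15, adjusted p = 0.42) were not called. Of 18 coagulation and platelet genes 4 rose, F7 (1.69), F10 (1.57), Tfpi2 (1.53) and Gp1bb (0.83), and F13a1 fell (-0.56, adjusted p = 0.017). The lymphatic and coagulation counts are to be read against the 16.9% of all tested genes that rose and 16.0% that fell. F13a1 lost the call when at least 1 of the mice was left out, and Lyve1, Reln, F10 and Gp1bb lost it with the pancreas covariate.

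Genes of sugar breakdown and of the response to low oxygen went up. Of 28 genes of hypoxia and glycolysis 16 rose and 1 fell (median 0.56), and 10 were called as risen with the pancreas covariate. The glucose carrier Slc2a1 was at 35.7, 27.1, 38.6 and 23.1 FPKM before and 90.6, 86.7, 67.6 and 55.3 FPKM after (log2 fold change 1.26 ± 0.17, adjusted p = 0.00023), and Slc16a3, which exports lactate (1.43, adjusted p = 0.0042), Eno1 (1.27, adjusted p = 3.3e-05) and Pgam1 (0.95, adjusted p = 5.3e-05) rose with it. Aldoa (-0.41, adjusted p = 0.29) and Gapdh (0.16, adjusted p = 0.68), which muscle also makes in quantity, were not called. Vegfa rose by 0.57. Of 30 genes of oxidative phosphorylation 4 fell and 0 rose, all by less than 0.4, and 9 were called as fallen with equal FPKM sums. Of 18 antioxidant genes 7 rose, led by Hmox1, which breaks down haem (1.37, adjusted p = 5e-05), and 1 fell, Cat (-0.51, adjusted p = 0.0013). In the list of protein folding 5 of 21 rose and 0 fell, with Trib3 (1.07, adjusted p = 6.1e-05) and Asns (0.71, adjusted p = 0.00082), targets of the amino acid stress response, first. Over all tested genes 16.9% rose and 16.0% fell. The oxidative phosphorylation, antioxidant and protein folding counts are to be read against those shares. Slc16a3 lost the call with the pancreas covariate. Without mouse 4, 4 antioxidant genes were called as risen and 0 of the oxidative phosphorylation list as fallen, against 1 without mouse 1, and 3 of the protein folding list rose without mouse 1 or 4.

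Genes of cell division went up modestly. Of 36 tested 26 rose and 0 fell, with a median of 0.87. Plk1 (1.63, adjusted p = 0.0015), Birc5 (1.6, adjusted p = 0.0019), Tpx2 (1.4, adjusted p = 0.0019) and Ccnb2 (1.32, adjusted p = 0.0041), which act in mitosis, led. Mki67, the usual marker of cycling cells, was at 3.89, 6.75, 4.74 and 8.28 FPKM before and 12.2, 11.1, 7.59 and 9.37 FPKM after and missed the threshold (log2 fold change 0.75 ± 0.30, adjusted p = 0.075). Top2a was at 5.16, 9.32, 6.72 and 8.79 FPKM in unwounded skin and at 18.5, 18.1, 13.6 and 12.6 FPKM in wounds (log2 fold change 1.03 ± 0.29, adjusted p = 0.019). Mcm2 was at 6.48, 8.45, 6.75 and 9.54 FPKM in unwounded skin and at 14.8, 10.7, 9.99 and 11.8 FPKM in wounds (log2 fold change 0.57 ± 0.19, adjusted p = 0.038), a licensing factor for replication. The counts depended on the libraries, with 13 called as risen without mouse 1, 17 without mouse 3 and 7 with the pancreas covariate, and the Mcm2 call was lost when any single mouse was left out. The median difference was 1.52, 0.72, 0.63 and 0.49 within mice 1 to 4, largest in mouse 1. Of 22 AP-1 and immediate early genes 9 rose and 0 fell, with Fosl1 (1.59), Ier3 (1.55), Junb (1.32) and Fos (1.31) first and Klf4 (-0.01, adjusted p = 0.92) and Jund (0.09, adjusted p = 0.69) not called. Top2a and Fos lost the call when at least 1 of the mice was left out, Ccnb2, Top2a and Mcm2 lost it with the pancreas covariate, and Mcm2 lost it under another scaling.

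Growth factor lists are to be read against 16.9% of all tested genes that rose and 16.0% that fell. Of 11 EGF receptor ligands and receptors 2 rose and 3 fell. Hbegf, a ligand shed by injured keratinocytes, rose (1.31, adjusted p = 0.00027), and Btc (-1.12, adjusted p = 0.0011) and the receptor Egfr (-0.5, adjusted p = 0.0019) fell. None of 14 fibroblast growth factors and receptors rose and 8 fell, though only 2 did with the pancreas covariate. Fgf7, keratinocyte growth factor, was at 6.48, 9.7, 9.61 and 9.41 FPKM before and 6.27, 5.66, 3.93 and 5.38 FPKM after (log2 fold change -0.68 ± 0.23, adjusted p = 0.043), a call that was lost without mouse 2, 3 or 4. Fgf18 (-0.81, adjusted p = 0.014) and Fgfr2 (-0.74, adjusted p = 0.0016) fell. Of 22 genes of the TGF-beta, activin and BMP group 3 rose and 7 fell (2 with the pancreas covariate). Tgfb1 was at 33.3, 31.5, 33.3 and 23.5 FPKM in unwounded skin and at 60.3, 65.7, 61.6 and 69.4 FPKM in wounds (log2 fold change 1.08 ± 0.15, adjusted p = 0.00023). Inhba, a subunit of activin (1.03, adjusted p = 0.0057), rose from about 1 FPKM, while Bmp4 (-1.11, adjusted p = 0.0016), Grem1 (-0.93, adjusted p = 0.0091) and Tgfb2 (-0.91, adjusted p = 0.003) fell. Of 27 Wnt ligands and modulators 1 rose and 6 fell, among them Dkk2 (-1.1, adjusted p = 0.00094), Wnt10b (-1.02, adjusted p = 0.014) and Axin2 (-0.59, adjusted p = 0.0019), a target of the pathway. Wnt5a was at 5.87, 7.73, 5.64 and 7.4 FPKM before and 7.34, 6.03, 5.14 and 5.12 FPKM after, without a call (log2 fold change -0.16 ± 0.20, adjusted p = 0.57). Fgf18 and Wnt10b lost the call when at least 1 of the mice was left out, Egfr, Fgf7, Fgf18, Grem1 and Tgfb2 lost it with the pancreas covariate, and Fgf7 lost it under another scaling. Without mouse 3, 5 fibroblast growth factor genes were called as fallen, and without mouse 1, 3 Wnt genes.

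Muscle gave the least uniform signal. Summed over the list of skeletal muscle genes, the level was lower in the wound in mice 1 and 4 and higher in mice 2 and 3, as the sums above show, and the median difference was -2.72, 1.95, 0.6 and -1.53 within mice 1 to 4. Ckm, creatine kinase of muscle, was at 2572, 70.7, 377 and 2465 FPKM in unwounded skin and 175, 299.5, 563 and 738 FPKM in wounds (log2 fold change -0.74 ± 0.72, adjusted p = 0.46). None of 34 genes was called as fallen and 3 rose, the troponins Tnnc1 (5.02), Tnni1 (4.17) and Tnnt1 (2.12) of slow, cardiac or immature fibres. With mouse 2 left out 7 were called as fallen. Genes of muscle precursors and new fibres were more even. Of 16 tested 13 rose and 0 fell, with per-mouse medians of 2.03, 2.87, 1.44 and 2.57. Actc1 was at 3.37, 0.13, 0.4 and 1.31 FPKM in unwounded skin and at 75.5, 30.5, 54 and 50.7 FPKM in wounds (log2 fold change 5.17 ± 0.40, adjusted p = 1.4e-05). Myog was at 4.63, 0.04, 6.73 and 2.43 FPKM in unwounded skin and at 36.1, 24.8, 25.8 and 27.7 FPKM in wounds (log2 fold change 3.38 ± 0.58, adjusted p = 0.002), the factor that commits myoblasts to fuse. Mymk (4.52, adjusted p = 2.3e-06) and Mymx (3.5, adjusted p = 0.00061), the fusion proteins, and Myh3, embryonic myosin (4.13, adjusted p = 1.4e-05), rose too, and 15 members were called with the summed muscle level as a covariate and 8 with the pancreas level.

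**Figure D4:**
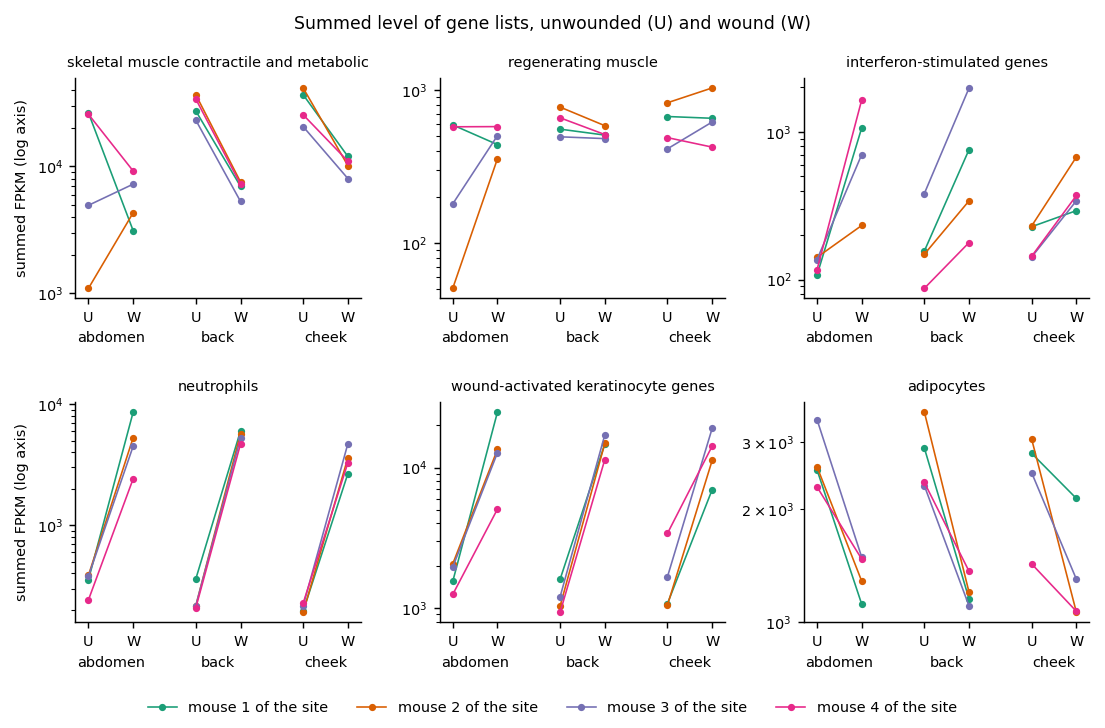
Summed FPKM of 6 gene lists (log axis) in the unwounded (U) and wound (W) library of each of the 12 mice, with lines joining libraries of a mouse. Unwounded abdomen skin ranges from 1098 to 26302 FPKM of skeletal muscle genes, while neutrophil, keratinocyte and interferon-stimulated sums rise in every mouse and the adipocyte sum is lower in every wound.

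Fat and detoxification genes went down together. All 19 tested adipocyte genes fell, with a median of -0.76, and 9 did with the pancreas covariate. Adipoq was at 109, 129, 212 and 121 FPKM in unwounded skin and at 41.6, 61.1, 73.4 and 78.6 FPKM in wounds (log2 fold change -1.15 ± 0.25, adjusted p = 0.005). Cfd was at 747, 826, 1334 and 734 FPKM in unwounded skin and at 188, 256, 376 and 367 FPKM in wounds (log2 fold change -1.63 ± 0.35, adjusted p = 0.0054), adipsin, a complement protease secreted by fat. Retn, resistin (-1.7, adjusted p = 0.0011), had the largest fall of the list, and Fabp4 (-0.68, adjusted p = 0.0035) and Pparg (-0.45, adjusted p = 0.0097) smaller ones. Among 26 genes of xenobiotic metabolism 18 fell and 1 rose, with 11 fallen without mouse 1 and 9 with the pancreas covariate. Abca8a, a lipid transporter (gene ID 217258, chr11:110025634-110097580), fell by 1.79 on the log2 scale, from 8.96, 12.1, 10.4 and 13.3 to 1.66, 3.67, 2.51 and 4.09 FPKM, and Cyp2e1 (-1.55, adjusted p = 0.017), Cyp2b23 (-1.43, adjusted p = 0.014) and Gsta3 (-1.26, adjusted p = 0.013) followed. Of 22 cholesterol synthesis genes 11 fell and 0 rose, all by less than 0.8, from Lss (-0.73, adjusted p = 3.2e-05) to Mvd (-0.3, adjusted p = 0.01), and 3 were called with the pancreas covariate and 6 without mouse 2. In the sebaceous list 4 of 16 fell, led by Scd3 (-1.07, adjusted p = 0.0083), and Awat2 rose (0.43, adjusted p = 0.02). The sebaceous list and the lists that follow are to be read against the 16.9% of all tested genes that rose and 16.0% that fell. Of 21 hair follicle genes 4 fell, Lgr5 (-0.96, adjusted p = 0.00081), Krt75 (-0.93, adjusted p = 0.044), Cd34 (-0.81, adjusted p = 0.0021) and Sox9 (-0.47, adjusted p = 0.03), which mark stem cells or the resting follicle, and 0 rose. Keratins of the growing hair such as Krt71 and Krt27 were near 0 in both states. Schwann cell genes fell in 5 of 16 cases, among them Pmp22 (-0.84, adjusted p = 0.0066) and Scn7a (-1.02, adjusted p = 0.0075). Of 8 melanocyte genes 1 fell, Mitf (-0.56, adjusted p = 0.0051). Pparg, Cyp2e1, Cyp2b23, Gsta3, Awat2, Krt75 and Sox9 lost the call when at least 1 of the mice was left out, Adipoq, Cfd, Pparg, Cyp2e1, Cyp2b23, Gsta3, Mvd, Awat2, Krt75, Sox9, Scn7a and Mitf lost it with the pancreas covariate, and Awat2 lost it under another scaling. Without mouse 1, 3 or 4, 2 hair follicle genes were called as fallen, and without mouse 1 or 4, 2 Schwann cell genes.

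Retinoid genes moved in both directions, with 5 of 19 up and 3 down. Their median was -0.01 against -0.015 over all tested genes, of which 16.9% rose and 16.0% fell. Aldh1a1, which makes retinoic acid (gene ID 11668, chr19:20492583-20643463), fell from 29.4, 33.8, 37.6 and 47.8 to 6.74, 13.4, 6.99 and 15.4 FPKM (log2 fold change -1.82 ± 0.18, adjusted p = 3.3e-05). Clock genes were mostly lower. Of 19 tested 11 fell and 2 rose. Dbp was at 43.9, 29.1, 29.5 and 42.9 FPKM in unwounded skin and at 10.5, 16.2, 17.7 and 25.3 FPKM in wounds (log2 fold change -1.08 ± 0.19, adjusted p = 0.0017). Nr1d1, the repressor of the clock loop, was at 98.3, 62.1, 75.6 and 80.9 FPKM before and 46.1, 44.3, 53 and 55.5 FPKM after (log2 fold change -0.65 ± 0.15, adjusted p = 0.0068), and Hlf (-1.08, adjusted p = 0.00043) and Nr1d2 (-0.92, adjusted p = 0.00011) fell with them, whereas the activators Arntl (-0.07, adjusted p = 0.58) and Clock (-0.28, adjusted p = 0.099) were not called. Both libraries of a mouse came from the same animal, and the hour of collection is not given in the sources used here. The members that rose were Bhlhe40 (0.94, adjusted p = 4.3e-05) and Nfil3 (0.82, adjusted p = 0.0085), which are induced by other signals too. Nfil3 lost the call with the pancreas covariate. Without mouse 1, 2 or 3, 2 retinoid genes were called as risen.

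Of 27 positional and developmental genes, which tell body sites apart, 2 rose and 6 fell, a share near the 32.9% of all tested genes that were called, with a median of -0.21, and 3 fell without mouse 1. Tbx5, a T-box factor, was at 2.18, 2.75, 2.77 and 2.58 FPKM before and 0.74, 1.44, 1.32 and 1.55 FPKM after (log2 fold change -0.82 ± 0.15, adjusted p = 0.0017). Hand2 was at 1.71, 1.56, 2.07 and 1.72 FPKM before and 0.93, 1.55, 1.48 and 1.39 FPKM after and was not called (log2 fold change -0.31 ± 0.16, adjusted p = 0.14). Hoxa9 (-0.6, adjusted p = 0.015) and Hoxa10 (-0.66, adjusted p = 0.0047) fell, and En1 (0.17, adjusted p = 0.3), Msx1 (0.06, adjusted p = 0.88), Slit2 (0.01, adjusted p = 0.93) and Tbx3 (-0.19, adjusted p = 0.4) were not called. Churc1 rose from 38.9, 20.6, 30.6 and 23.4 to 37.6, 41.5, 51 and 40.6 FPKM (log2 fold change 0.61 ± 0.15, adjusted p = 0.0081), a call that was lost with the pancreas covariate. Hoxa9 lost the call when at least 1 of the mice was left out.

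The largest falls by the naming rule were few and partly uncertain. Mup17, a major urinary protein gene (gene ID 100039206, chr4:61591929-61595865), went from 1.2, 49.4, 90.2 and 59.8 FPKM to 0, 0.18, 0 and 0.27 FPKM (log2 fold change -5.44 ± 1.19, adjusted p = 0.0065). Mup genes are near-identical, so which copy the reads came from is uncertain, and the unwounded skin of mouse 1 had almost none. Gm2506 (-3.04, adjusted p = 0.031) is a near-copy in the Ccl27 cluster of chromosome 4, with the same limit, and its call was lost without the mouse term, in the 8 abdomen libraries alone and without mouse 4. Penk, a precursor of opioid peptides that fibroblasts also make (gene ID 18619, chr4:4133536-4138815), fell from 62.9, 47.4, 108 and 33.3 to 13.6, 15.4, 22.4 and 10.6 FPKM (log2 fold change -1.9 ± 0.24, adjusted p = 0.00019). C7 (-2.13, adjusted p = 0.0097), Glt8d2 (-1.7, adjusted p = 0.0036), Amy1 (-1.7, adjusted p = 0.0032), Ifitm6 (-1.66, adjusted p = 0.008), Car3, a carbonic anhydrase of fat and muscle (-1.65, adjusted p = 0.00035), and Cdo1, which oxidises cysteine (-1.62, adjusted p = 0.0027), complete the list with 9130204L05Rik (-2.13, adjusted p = 0.015) and the genes already described. 9130204L05Rik lost the call when at least 1 of the mice was left out, and Mup17, C7, Amy1, Ifitm6 and 9130204L05Rik lost it with the pancreas covariate.

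The question whether abdomen responded differently from the other sites was put to the same fit, as the abdomen wound effect minus the mean of the back and cheek effects. 1 gene passed, 0.00693% of those tested. Abcc3, which pumps conjugated compounds out of cells (gene ID 76408, chr11:94343295-94393017), was at 2.43, 2.74, 3.21 and 2.23 FPKM in unwounded abdomen and 3.31, 3.2, 3.67 and 2.64 FPKM in its wounds (log2 fold change 0.24 ± 0.09), against fold changes of 1.24 ± 0.09 in back and 1.93 ± 0.09 in cheek. The difference was -1.35 ± 0.11 on the log2 scale (limma, adjusted p = 0.00042), and no gene was called with the pancreas covariate. At an unadjusted p under 0.05 there were 2335 genes, 844 higher and 1491 lower in abdomen, or 16.2%. The count turned on 1 animal. Without mouse 1 of the abdomen 818 genes differed, 530 with the higher effect in abdomen and 288 with the lower, and without mouse 4 there were 4. Mouse 1 was also the abdomen mouse whose wound lacked the pancreas signal. Its summed level there was 0.44 FPKM, against 514, 176 and 199.7 FPKM in the wounds of mice 2 to 4. Without mouse 1, every abdomen wound carried that signal and no unwounded abdomen library did. The part of that signal in the 818 could therefore not be told apart from wounding. The next genes by p were Hcar2, a receptor for hydroxybutyrate (difference -1.10, adjusted p = 0.072), Crabp1 (-1.18, adjusted p = 0.072) and Mmp8 (-1.38, adjusted p = 0.084), none of which passed.

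**Figure D5:**
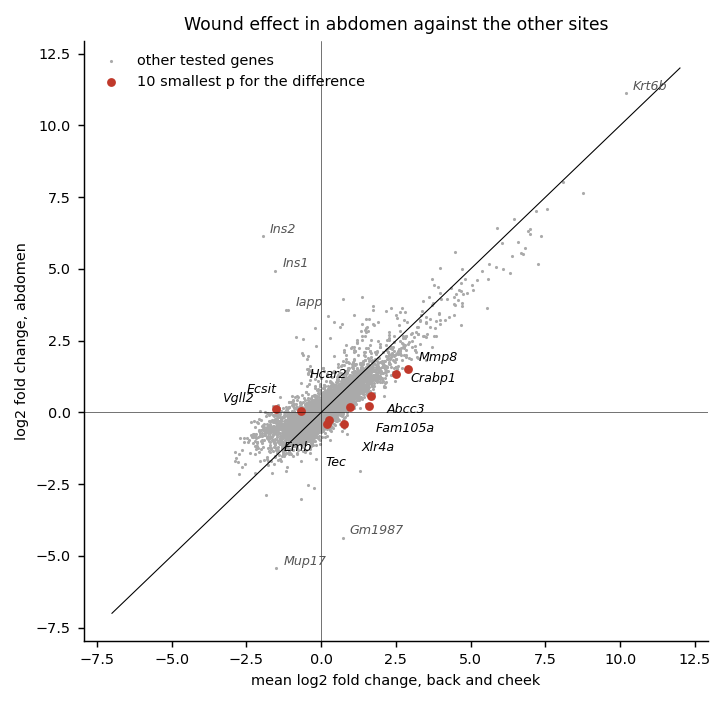
Each point is 1 tested gene, with the mean log2 fold change of back and cheek wounds on the x axis and that of abdomen wounds on the y axis; red points are the 10 genes with the smallest p for the difference and the line marks equal effects. Most genes lie along the line, Abcc3 is the red point that passed the test, and the pancreas genes Ins1, Ins2 and Iapp lie at the upper left.

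By their own fits, 3517 of the 4741 abdomen calls were called the same way in back and 3063 in cheek, out of 6622 calls in back and 5272 in cheek. At all 3 sites 2768 genes were called, and 2765 of them had the same sign. The sites use different mice, and their fold changes correlated with those of abdomen across genes, which are not independent replicates, with r = 0.84 for each. List medians were close for wound-activated keratinocyte genes (3.77, with 4.19 in back and 3.6 in cheek), adipocytes (-0.76, with -1.01 in back and -0.58 in cheek) and monocytes and macrophages (1.28, with 1.65 in back and 1.52 in cheek). The interferon-stimulated list stood at 2.75 in abdomen and at 1.71 in back and 1.07 in cheek, and neutrophils at 2.67, with 3.31 in back and 3.51 in cheek. Skeletal muscle stood at -0.51, with -2.15 in back and -1.45 in cheek, where 25 members fell in back and 8 in cheek. No member of these lists passed the test of the difference, so these medians are given as values only.

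The 4 abdomen mice did not respond by equal amounts. Genes that differed by log2 1 or more between the libraries of a mouse numbered 1988 in mouse 1, 938 in mouse 2, 996 in mouse 3 and 1298 in mouse 4, and the log2 differences of pairs of mice correlated across genes with r between 0.54 (mice 1 and 2) and 0.81 (mice 2 and 3). Keratinocyte and neutrophil sums were highest in the wound of mouse 1 and lowest in that of mouse 4.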

How the data were processed

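RNA of whole skin was sequenced as paired 100-base reads on a BGISEQ-500. The authors deposited FPKM values per library from RSEM (1.2.12), with HISAT2 and Bowtie2 (2.2.5) on GRCm38, rounded to 2 decimals and not scaled between libraries. FPKM carry no counts, so the depth of a library is not known and the counting error of a value cannot be estimated. The deposited table of log2 fold changes and p-values of the authors' own DESeq2 comparisons was not used.

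Wound effects were fitted on log2(FPKM + 0.5) with limma (3.58.1, statmod 1.5.0, R 4.3.3), using a variance trend and robust estimation. A gene was tested if 4 or more of the 24 libraries reached 0.5 FPKM, which left 14423 genes. A gene near 0 in all unwounded skin could pass only through wounds, so its rise was partly set by the filter. Each of the 12 mice had its own term beside the wound effect of its site (9 residual degrees of freedom), with Benjamini-Hochberg adjustment and a threshold of 0.05. Both libraries of a mouse come from the same animal, and their deviations from the group means correlated across genes with r = -0.03, 0.348, 0.53 and 0.441 in abdomen mice 1 to 4. The fit was tested on simulated data.

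The members and the 46 gene lists (929 genes, 877 tested) were chosen with earlier results of these data known, so lists are described by counts and medians only. Genes were named as the 15 largest rises and falls among called genes with all 4 mice changing alike and a mean of at least 5 FPKM, up to 4 called and 2 uncalled members of each list, the 10 smallest p for the difference between sites, and the genes the study names for wounds. Other list members were named where a list is described, and the pancreas genes after their values were seen. Entrez IDs matched RefSeq for 99.7% of genes. Alternatives covered pseudocounts, filters, scaling, moderation, pairing, libraries and thresholds, and, added after seeing the data, muscle and pancreas levels. A few list members are not reported here.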

Additional observations from a re-analysis of the deposited data

Results flagged for a closer look

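Across the genes and list sums whose library values were examined, 216 groups of 4 libraries were tested for a library far from the others, and 11 had one, where chance gives about 1 in 20. In wounds, mouse 1 was highest for Tnc (124.84 FPKM), Timp1 (239.74 FPKM) and Crabp1 (127.53 FPKM) and lowest for the summed level of the positional genes (162.3 FPKM). The wound of mouse 4 was highest for Col1a1 (3382.88 FPKM) and Retnla (383.33 FPKM), and the wound of mouse 3 for the summed level of oxidative phosphorylation genes (5475.8 FPKM). In unwounded skin, mouse 3 was highest for Cfd (1334.47 FPKM) and mouse 1 lowest for Fgf7 (6.48 FPKM). Unwounded skin had a single library above 0 for Cxcl2 (0.06 FPKM, mouse 2) and for Cxcl3 (0.32 FPKM, mouse 1). The wound effect on Abcc3 in abdomen differed from the mean of back and cheek by -1.348 on the log2 scale.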

How the results depend on the processing

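No named gene that was called changed direction under any alternative. The count of called genes stayed between 3281 and 5584 of the tested genes under the scaling, pseudocount, filter, moderation, pairing and library alternatives, apart from the threshold and the pancreas covariate. Without the replicate block it was 4059, and the paired value of 4741 is the one reported. At a threshold of 0.001 there were 715 calls (565 rises, 150 falls). With the pancreas level as a covariate there were 2106 (1171 rises, 935 falls), a level that was high in the wound of 3 of the 4 abdomen mice and in no unwounded abdomen library. Leaving out muscle genes with equal FPKM sums gave 3879 falls. The count of genes whose wound effect differed from the other sites was 2 without the replicate block, 0 with the pancreas covariate, where 976 had an unadjusted p under 0.05, and between 1 and 818 when 1 mouse was left out. The 818 came without abdomen mouse 1, whose wound alone among the abdomen wounds lacked the pancreas signal. Of 214 named genes called, 34 lost the call without mouse 1, 21 without mouse 2, 23 without mouse 3, 29 without mouse 4, 19 without the replicate block, 22 in the 8 abdomen libraries alone and 67 with the pancreas covariate. Of 92 list counts, 26 moved by over 1.5 times without mouse 1 and 40 with the pancreas covariate. The causes were not tested. Depth is unknown for FPKM, so the counting error of genes near 0, which is largest there, cannot be estimated.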
